A study of Mus musculus with 6 samples.

Results

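Chromatin accessibility around 10 genes of the Notch pathway was examined in neural stem and progenitor cell (NSC/NPC) cultures grown from the subependymal zone (SEZ) of adult mice, the germinal layer along the lateral ventricle. The genes were the receptors Notch1, Notch2 and Notch3, the ligands Dll1, Dll3 and Jag1, and the transcriptional repressors Hes1, Hes5, Hey1 and Hey2. For each gene, peaks overlapping the gene body extended by 50 kb on each side were taken (its window). Peaks of all libraries that overlapped were merged into regions, and 129 of the 120143 regions of the genome fell in these windows. The assay was ATAC-seq, where open DNA is cut and tagged by a transposase.

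All cultures came from mice labelled 10 weeks old in which Srr2, an enhancer of Sox2, had been deleted with CRISPR-Cas9 (Srr2del/del). Neurospheres expanded with EGF and FGF were dissociated, and the cells were kept on Matrigel with FGF for 2 days (2 DIV), the PROLIF state. For DIFF, mitogens were then removed and 2% fetal bovine serum was given for 1 day (2 + 1 DIV), so the loss of mitogens, the serum and the added day cannot be told apart. PROLIF and DIFF had 3 libraries each, numbered 1, 2 and 4. As wild-type cultures were not analysed here, states are compared within the mutant only.

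Notch signalling passes between neighbouring cells. A Delta-like or Jagged ligand on one cell binds a Notch receptor on the next, the receptor is cleaved, and its intracellular domain joins the DNA-binding protein RBPJ to switch on Hes and Hey genes. In the SEZ the pathway is known for keeping stem cells undifferentiated, since HES proteins repress proneural genes. A peak reports open DNA, not transcription.

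The lists held from 60006 peaks (PROLIF replicate 4) to 88039 peaks (DIFF replicate 4). Their background pileup, a stand-in for depth, ran from 2.85 reads to 6.01 reads in the same pair of libraries. A deeper library can call weaker peaks, so absence of a peak means signal under the caller's threshold and does not show closed chromatin. Promoters of all 6 neural stem and progenitor markers examined had a peak in every library, Sox2 and Nes among them. Of 5 microglia markers, Cx3cr1 and Ptprc had no promoter peak in any library, Csf1r and P2ry12 had one in all 6 and Aif1 in 5. Of 4 endothelial markers, Cldn5, Cdh5 and Tie1 had none and Pecam1 had one in the 3 PROLIF libraries alone. Of 3 markers each of myelinating oligodendrocytes and ependymal cells, Foxj1 (ependymal) had a peak in all 6 libraries, Mag and Tmem212 in none, and Mog, Mobp and Ccdc153 in 1 or 2.

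Over all windows together, the states overlapped in the full lists. The windows held 103, 89 and 85 peaks in PROLIF replicates 1, 2 and 4 and 97, 93 and 107 peaks in DIFF replicates 1, 2 and 4. The means were 92.3 ± 9.45 and 99.0 ± 7.21 peaks (SD, n = 3), and the ranges overlapped (p = 0.4, two-sided exact permutation test). The smallest p that 3 libraries against 3 allow is 0.1. Peaks covered 45.1 ± 4.43 kb of the windows in PROLIF against 49.0 ± 3.04 kb in DIFF (SD, n = 3), with an exact permutation p of 0.4. As a share of each list the windows took 13.3 ± 0.859 peaks per 10000 in PROLIF against 13.0 ± 0.741 in DIFF (SD, n = 3), with an exact permutation p of 0.6. With every list cut to its strongest 60006 peaks, DIFF was higher by 7.67 peaks, 4.47 kb and 1.28 per 10000. Each of these differences had an exact permutation p of 0.1, so there the states did not overlap. The data numbers in the peak names fall in a lower and a higher range. The difference in share, DIFF minus PROLIF, was 0.296 per 10000 within the lower range, which holds 2 PROLIF libraries and 1 DIFF library, and -0.703 within the higher one, which holds 1 and 2, so neither value has a usable test.

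Of the 129 regions, 63 (48.8%) had a peak in all 6 libraries, against 33.4% of all regions, and 20 (15.5%) had one in a single library, against 29.7%. Median region width was 486 bp against 322 bp over all regions. Regions present in every library of one state and in no library of the other were few. There were 2 PROLIF-only regions, where 1.78% of all regions were of this kind, and 7 DIFF-only regions, where 3.47% were. The receptors had both PROLIF-only regions and 5 of the DIFF-only ones among 59 regions. The target genes had the remaining 2 DIFF-only regions among 34, and the 36 regions of the ligand windows included no state-only region. With lists of equal length both PROLIF-only and 4 of the 7 DIFF-only regions kept their class, with a cover of at least 50% of the region 1 and 3 did, and among the strongest 20000 peaks of each list none did (0 of 2 and 0 of 7).

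**Figure D1:**
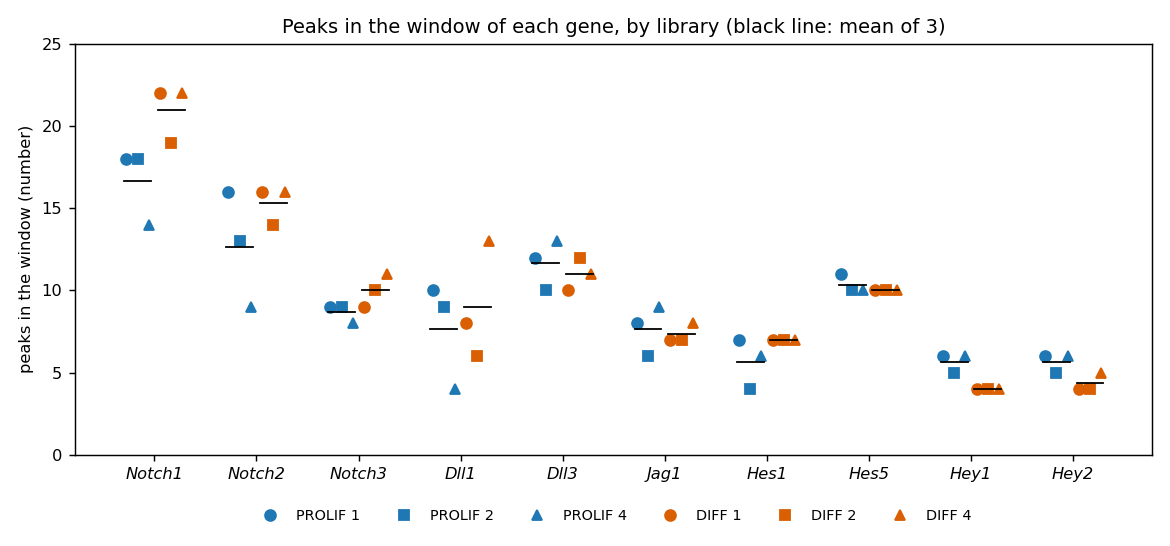
Number of peaks (y axis) in the window of each gene (x axis), 1 point per library, with PROLIF in blue, DIFF in orange and a black line at the mean of 3 libraries. Notch1 had 14 to 18 peaks in PROLIF and 19 to 22 in DIFF, Hey1 had 5 or 6 in PROLIF and 4 in every DIFF library, and the other genes overlapped between states.

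Window peak numbers did not overlap between states at 2 genes. Notch1 had 18, 18 and 14 peaks in PROLIF replicates 1, 2 and 4 and 22, 19 and 22 in DIFF (exact permutation p = 0.1, n = 3, the smallest possible). An upward gap of this kind in DIFF was present at 7.94% of the 21938 protein-coding genes measured the same way. Hey1 had 6, 5 and 6 peaks in PROLIF and 4 in each DIFF library (exact permutation p = 0.1, n = 3), a gap downward that was present at 1.52% of genes. Thus 1 of 10 genes differed without overlap in each direction, which in the upward direction is near the genome's share and does not set Notch1 apart. Hey2 came next to Hey1 with 6, 5 and 6 peaks in PROLIF and 4, 4 and 5 in DIFF, touching at 5. The windows also differed in density. Notch1 averaged 11.9 peaks per 100 kb, at percentile 97.6 of protein-coding genes, followed by Dll3 (10.4) and Hes5 (10.0), whereas Hey2, at 4.53, lay near the genome median of 4.26. These windows hold other genes too, among them Timm50, Supt5 and Rps16 beside Dll3 and Pank4 beside Hes5, and a peak cannot be assigned to one gene by position alone.

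All 10 genes had a promoter peak, within 3 kb of an annotated start site, in all 6 libraries, as did 64.4% of protein-coding genes. Promoter strength was compared as the percentile of the strongest promoter peak by −log10 p within its own list, where 100 is the strongest peak. Hey2 and Hey1 had the highest values, from 97.5 to 98.9 and from 96.0 to 98.7, and overlapped between states. Hes5 followed, at 86.0 to 93.3. Notch3 had the lowest, at 60.9 in PROLIF replicate 4.

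Between states, the promoter percentiles of 3 genes were higher in DIFF without overlap and that of 1 gene was lower. Across the 14126 genes with a promoter peak in all 6 libraries, 26.0% were higher in DIFF without overlap and 4.79% lower. Dll3, a divergent ligand that acts mainly inside the cell that makes it, had 68.2, 72.3 and 64.0 in PROLIF replicates 1, 2 and 4 and 76.4, 83.9 and 85.1 in DIFF (exact permutation p = 0.1, n = 3). Notch3 had 66.4, 62.2 and 60.9 in PROLIF and 67.8, 72.4 and 83.8 in DIFF (exact permutation p = 0.1, n = 3). Notch1 had 85.2, 82.9 and 77.3 in PROLIF and 88.7, 86.3 and 90.2 in DIFF (exact permutation p = 0.1, n = 3). At each of these 3 genes the nearest values of the states differed by less than the SD within PROLIF. That SD was 4.15 for Dll3, 2.86 for Notch3 and 4.05 for Notch1. A share of 3 in 10 lies near the genome's, so it does not set these genes apart. Jag1, a Serrate-type ligand, had 89.7, 81.1 and 86.2 in PROLIF and 78.6, 80.2 and 81.0 in DIFF (exact permutation p = 0.1, n = 3). Here too the nearest values differed by less than the spread within PROLIF. The strongest Jag1 promoter peak lay 2.2 kb into the gene in DIFF replicates 1 and 2 and at the start site in the other libraries. The region at the start site had 77.9 and 76.0 in those 2 replicates. Hes1 had 89.1, 86.6 and 70.9 in PROLIF and 76.4, 68.3 and 80.3 in DIFF, with wide overlap. A percentile compares ranks within lists of unequal length, and none of the promoter regions at the outermost start site passed the test of fold enrichment described next. A weaker region of Hey1, also within 3 kb of a start site, did pass (limma adjusted p = 0.00967).

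**Figure D2:**
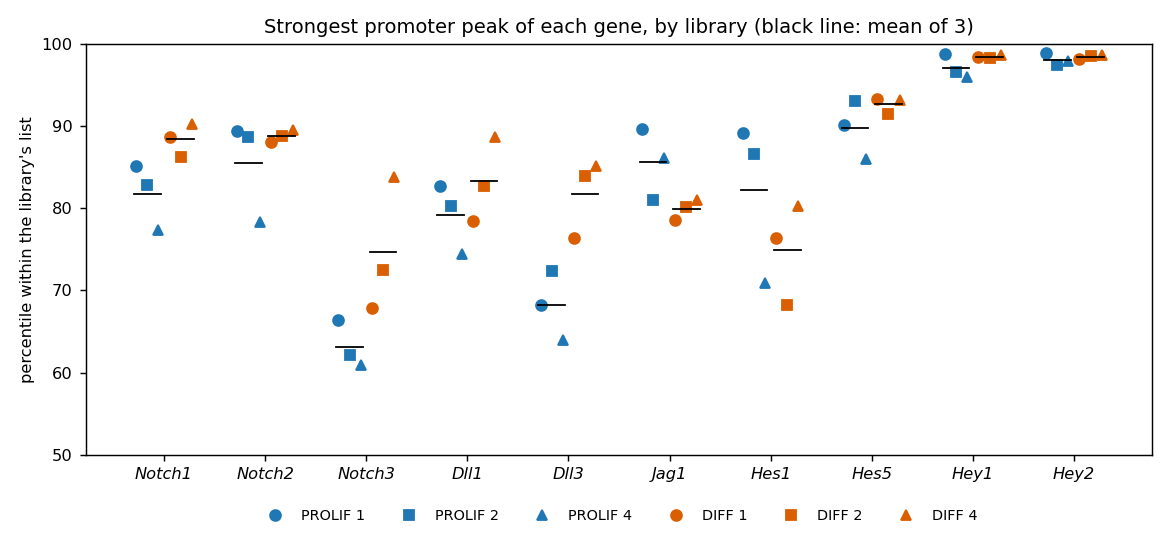
Percentile of the strongest promoter peak within its own library's list (y axis, drawn from 50 to 100) for each gene, 1 point per library, PROLIF in blue, DIFF in orange and a black line at the mean of 3. Dll3, Notch3 and Notch1 were higher in every DIFF library than in any PROLIF library, Jag1 was lower, and Hey1 and Hey2 stayed between 96.0 and 98.9.

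Fold enrichment, the ratio of a peak to the local background of its library, was then compared by limma on quantile-normalised log2 values. The fit covered the 40164 regions with a peak in all 6 libraries, of which 63 lay in the windows of the Notch genes. At an adjusted p under 0.05 over all regions, 1 of the 63 was higher in DIFF, where the genome gave 6.89%, and 5 were lower, where the genome gave 8.86%. Without adjustment, 10 of the 63 had a p under 0.05, against 28.6% of all regions. The median log2 change was 0.01 for the Notch regions and 0.03 for all. The shares of called regions were thus at or below those of the genome in both directions, and 57 of the 63 did not pass. This test leaves out regions that lost their peak in any library.

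**Figure D3:**
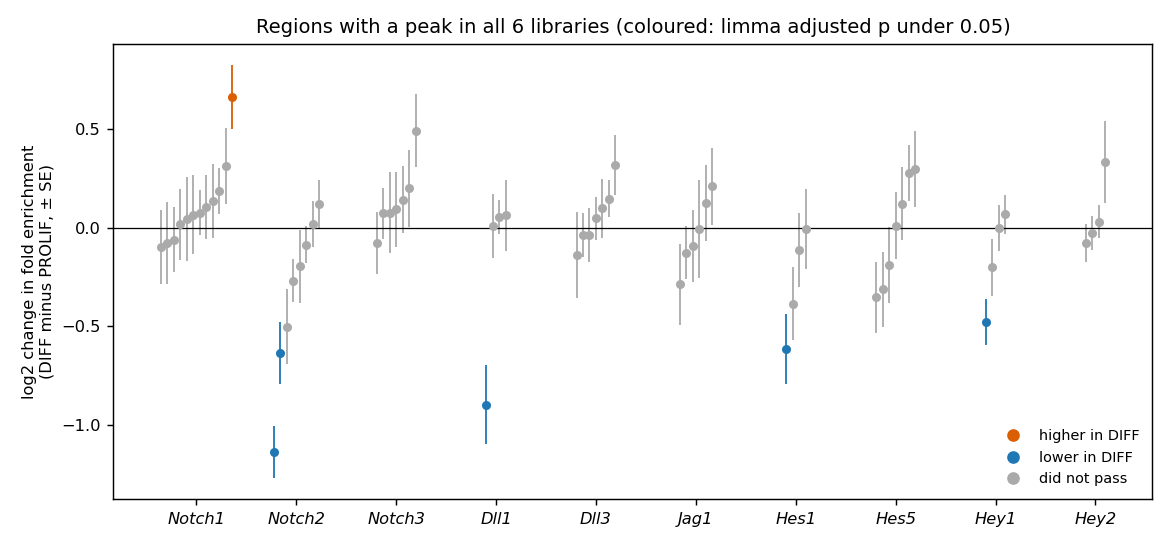
Change in log2 fold enrichment from PROLIF to DIFF (y axis, ± SE from limma) of the 63 regions with a peak in all 6 libraries, sorted within each gene. The 5 blue regions (2 of Notch2 and 1 each of Dll1, Hes1 and Hey1) were lower in DIFF and the orange region of Notch1 was higher at an adjusted p under 0.05, and grey regions did not pass.

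Among the receptors, Notch2 (ENSMUSG00000027878.11, chromosome 3 from 98013527 to 98150361 of GRCm38, plus strand), the receptor linked to quiescence of adult NSC, showed the largest decrease. The region lay in an intron 93.3 kb downstream of the start site, at chr3:98106360-98107132. Its fold enrichment was 15.8, 12.1 and 10.9 in PROLIF replicates 1, 2 and 4 and 5.32, 5.72 and 5.89 in DIFF. The DIFF values lay close together and far under every PROLIF value. Normalised, it fell by 1.14 on the log2 scale (SE 0.133; limma adjusted p = 2.32e-05), and it passed under all 12 alternatives in which it could be fitted, with adjusted p from 1.52e-06 to 0.00446.

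The neighbouring region of the intron went the other way. It lay at chr3:98104897-98105788, 571 bp from the decreasing region, and was singled out after its values were seen. It had a fold enrichment of 3.44 in PROLIF replicate 1, no peak in PROLIF replicates 2 and 4, and 6.60, 9.35 and 9.63 in DIFF. A peak missing from 2 libraries kept it out of the fit, so this difference was not tested. Within about 2 kb of the Notch2 intron, peak strength was thus higher in PROLIF at one summit and in DIFF at the other, 1.56 kb apart.

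A further intronic region of Notch2, 76.5 kb downstream of the start site at chr3:98089537-98090369, had 15.7, 10.9 and 9.76 in PROLIF and 9.17, 7.33 and 6.22 in DIFF. It fell by 0.63 on the log2 scale (SE 0.158; limma adjusted p = 0.0102), though its nearest values, 9.76 and 9.17, differed little. Its adjusted p was 0.0572 without PROLIF replicate 1, 0.0590 without DIFF replicate 4 and 0.129 on the percentile scale. The remaining intronic regions in all 6 libraries, at 12.6, 29.7 and 50.0 kb, held fold enrichments from 8.95 to 16.6 and did not pass. The Notch2 promoter peak had 12.5, 11.9 and 8.43 in PROLIF and 10.0, 12 and 10.3 in DIFF, and its log2 change was 0.02 (SE 0.116; limma adjusted p = 0.935).

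State-only regions of Notch2 were a PROLIF-only one 27.2 kb upstream, at chr3:97986087-97986642, with 6.04, 4.57 and 3.64, and a DIFF-only intronic one at chr3:98145014-98145805, with 3.24, 5.05 and 3.85. Both were weak beside the intronic regions above, at percentiles from 13.3 to 49.5. The PROLIF-only region lost its class with a cover of at least 50% and among the strongest 20000 peaks, and the DIFF-only region under both of these and with lists of equal length.

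The reference sequence around the summits of the Notch2 regions that passed, of the region beside the stronger of them and of both state-only regions is shown for its motifs, 121 bases centred on the summit of the best-ranked peak, on the plus strand. Capitals mark matches to any of 8 motifs searched on both strands: GTGGGAA (RBPJ), TGANTCA (AP-1), CAGCTG and CAGATG (E-boxes), TTGGCA (NFI), ACAAAG and ACAATG (SOX), and CACGNG (HES and HEY).
Notch2 intron, lower in DIFF, chr3:98106779-98106899: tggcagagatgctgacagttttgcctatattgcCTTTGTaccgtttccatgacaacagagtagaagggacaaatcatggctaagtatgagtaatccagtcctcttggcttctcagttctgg
Notch2 intron, lower in DIFF, chr3:98089932-98090052: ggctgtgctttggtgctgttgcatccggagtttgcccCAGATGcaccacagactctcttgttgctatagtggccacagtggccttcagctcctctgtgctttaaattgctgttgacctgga
Notch2 upstream, PROLIF-only, chr3:97986218-97986338: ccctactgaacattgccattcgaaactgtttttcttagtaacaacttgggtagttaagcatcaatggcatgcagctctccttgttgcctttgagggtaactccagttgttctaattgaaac
Notch2 intron, beside the first, chr3:98105221-98105341: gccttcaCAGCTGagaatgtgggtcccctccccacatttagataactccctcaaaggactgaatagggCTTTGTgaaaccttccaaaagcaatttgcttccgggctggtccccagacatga
Notch2 intron, DIFF-only, chr3:98145317-98145437: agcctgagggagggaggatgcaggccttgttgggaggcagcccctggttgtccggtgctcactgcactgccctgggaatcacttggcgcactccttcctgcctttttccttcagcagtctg
In the bases shown, the decreasing region at 93.3 kb and the region beside it each held a SOX match on the opposite strand, the latter with CAGCTG as well. The decreasing region at 76.5 kb held CAGATG, and neither state-only region held any of the 8. For the bases shown here and below, no share over the genome was counted. Within 100 bp of the summit, a wider span, ACAAAG was found in 20.2% of regions of the genome, CAGCTG in 19.6% and CAGATG in 17.3%.

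**Figure D4:**
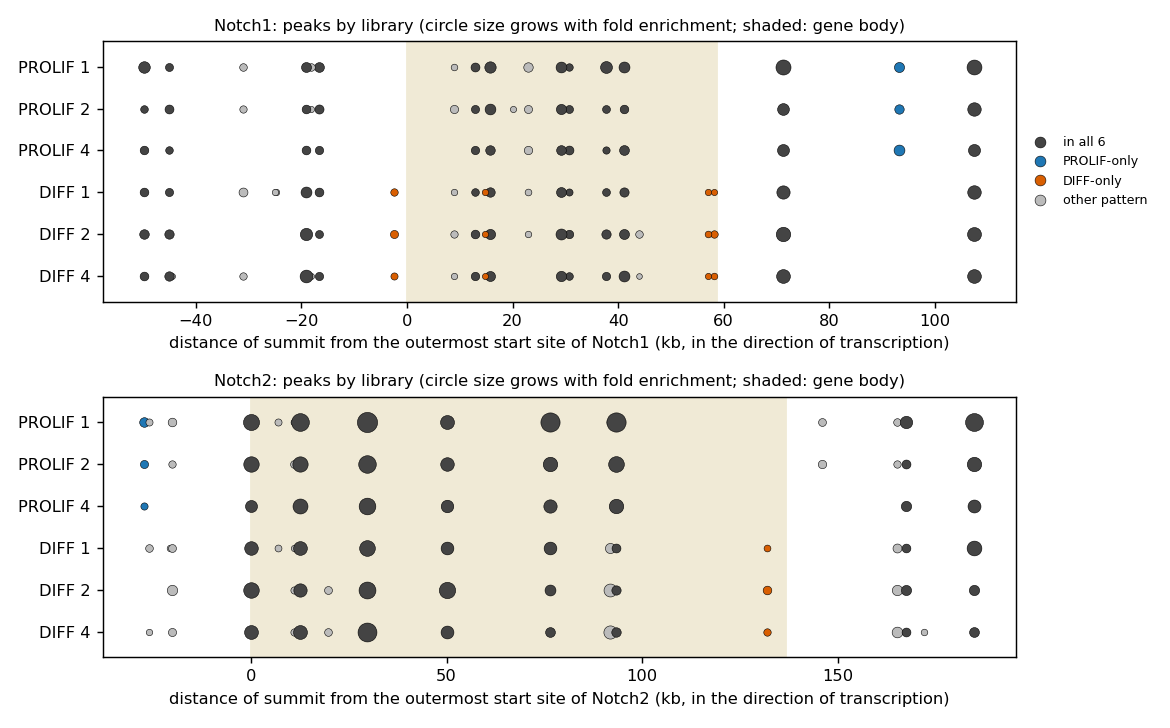
Peaks of each library (rows) along the windows of Notch1 and Notch2, placed at the summit of their region by its distance in kb from the outermost annotated start site (x axis, in the direction of transcription), with the gene body shaded. Circle size grows with fold enrichment and colour gives the occupancy class. At Notch2 the circles near 93.3 kb are large in PROLIF and small in DIFF, and the grey region beside them is in DIFF and PROLIF replicate 1. At Notch1 the 4 DIFF-only regions lie along the gene and just upstream of it.

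Notch1 (ENSMUSG00000026923.15, chromosome 2 from 26457903 to 26516663, minus strand), a receptor known to maintain active NSC, had the most regions, 26, of which 12 were in all 6 libraries. Its outermost start site in GENCODE had no peak within 2380 bp in any library. The RefSeq start site, at 26503822, lay inside a region present in all 6 libraries, at chr2:26503547-26504317, with a fold enrichment of 5.33, 4.56 and 4.75 in PROLIF and 4.11, 5.07 and 4.85 in DIFF. The strongest promoter peak lay 2.9 kb further into the gene, at chr2:26500061-26501237, with 7.80, 7.20 and 5.96 in PROLIF and 5.87, 6.65 and 6.46 in DIFF. Neither passed the test, with log2 changes of 0.02 (SE 0.181; limma adjusted p = 0.962) and -0.06 (SE 0.164; adjusted p = 0.854). The higher promoter percentile of Notch1 in DIFF, which came from the second of these regions, was thus not matched by its fold enrichment.

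The single region higher in DIFF among the 63 lay upstream of Notch1, at chr2:26535457-26536097, 19.2 kb from the outermost start site and 32.0 kb from the RefSeq start site. It had 6.38, 5.10 and 5.14 in PROLIF and 7.32, 8.76 and 9.19 in DIFF, without overlap. The increase was 0.66 on the log2 scale (SE 0.164; limma adjusted p = 0.00922). Without DIFF replicate 4, the deepest library, the adjusted p was 0.0719, and under the other 12 alternatives in which it could be fitted it passed.

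Of the 7 DIFF-only regions, 4 belonged to Notch1. Those at the 3′ end lay in exons, at chr2:26458287-26458800, which overlaps the annotated gene 0610009E02Rik, with a fold enrichment of 2.64, 3.90 and 3.04, and at chr2:26459603-26460566, with 2.83, 3.09 and 2.67. Another lay 2.0 kb inside the RefSeq start site, at chr2:26501662-26501977, with 2.88, 2.74 and 2.59. The last lay 2.5 kb upstream of the outermost start site, at chr2:26519043-26519306, with 3.88, 4.55 and 3.57. All but the first of these regions lay within 3 kb of an annotated start site of Notch1, thus within promoter distance. All 4 were weak peaks, at percentiles from 14.2 to 53.7, and 3 of the 4 kept their class with lists of equal length, 2 with a cover of at least 50% and 0 among the strongest 20000 peaks. The PROLIF-only region of this window had 6.55, 5.84 and 7.28 and lay in an intron of the neighbouring gene Sec16a, at chr2:26423123-26423630, 93.3 kb downstream of the start of Notch1 and beyond its 3′ end. Sequences are shown in the same way for the region that passed, for the DIFF-only region outside exons and for the PROLIF-only region.
Notch1 upstream, higher in DIFF, chr2:26535763-26535883: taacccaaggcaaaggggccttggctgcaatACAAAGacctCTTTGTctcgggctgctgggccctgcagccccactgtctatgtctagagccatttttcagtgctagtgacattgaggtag
Notch1 upstream, DIFF-only, chr2:26519093-26519213: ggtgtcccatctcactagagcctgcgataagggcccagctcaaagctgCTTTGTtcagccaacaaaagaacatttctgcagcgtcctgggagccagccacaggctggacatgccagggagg
Notch1 window in Sec16a, PROLIF-only, chr2:26423343-26423463: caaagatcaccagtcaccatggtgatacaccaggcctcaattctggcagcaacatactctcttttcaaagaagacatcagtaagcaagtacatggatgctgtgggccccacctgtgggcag
The region higher in DIFF held a pair of SOX motifs on opposite strands near its summit, the DIFF-only region held one, and the PROLIF-only region held none of the 8 in the bases shown. The other 3 DIFF-only regions, in exons and not shown, held no SOX match in the same bases around their summits, and CAGCTG was found in 1 of them. The wider span of 100 bp to each side of the summit gave a different picture. There the DIFF-only regions at chr2:26458287-26458800 and chr2:26501662-26501977 each held a SOX match, and the PROLIF-only region held an NFI match.

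Notch3 (ENSMUSG00000038146.8, chromosome 17 from 32120820 to 32166852, minus strand), a receptor best known from vascular mural cells and also present in NSC, had 13 regions, 7 of them in all 6 libraries. Its promoter peak had 7.51, 6.68 and 6.29 in PROLIF and 5.7, 7.78 and 8.52 in DIFF, and the log2 change was 0.14 (SE 0.170; limma adjusted p = 0.637).

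Among the ligands, Dll1 (ENSMUSG00000014773.13, chromosome 17 from 15367354 to 15376872, minus strand), a ligand that activated progenitors present to stem cells, had 14 regions, but only 4 in all 6 libraries, the lowest share of the 10 genes (28.6%). An intergenic region 33.6 kb downstream of its start site, at chr17:15343132-15343522, had 9.57, 7.61 and 5.46 in PROLIF and 3.45, 5.05 and 2.99 in DIFF, without overlap. It fell by 0.90 on the log2 scale (SE 0.201; limma adjusted p = 0.00482), and it passed under all 11 alternatives in which it could be fitted, with adjusted p from 0.000993 to 0.0463. Its summit sequence held a SOX motif.
Dll1 downstream, lower in DIFF, chr17:15343216-15343336: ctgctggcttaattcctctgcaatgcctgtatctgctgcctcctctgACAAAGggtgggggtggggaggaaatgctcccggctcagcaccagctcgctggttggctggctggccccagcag
The Dll1 promoter region, whose summit also lay in an exon of the annotated gene A930024N18Rik, had 6.03, 5.28 and 4.86 in PROLIF and 4.57, 5.49 and 5.76 in DIFF. Its log2 change was 0.06 (SE 0.180; limma adjusted p = 0.864). The strongest peak of the window, with 15.2 to 19.3 in every library, lay at the promoter of the neighbouring gene Fam120b and did not pass either.

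Dll3 (ENSMUSG00000003436.11, chromosome 7 from 28293553 to 28302238, minus strand) had 15 regions, 7 of them in all 6 libraries, and 5 of these 7 lay at promoters of other protein-coding genes. At its own start site fold enrichment was 7.63, 7.52 and 6.05 in PROLIF and 7.09, 10.2 and 8.33 in DIFF. The log2 change was 0.32 (SE 0.152; limma adjusted p = 0.172), so the gap between states in percentile was not matched by a call on fold enrichment. Jag1 (ENSMUSG00000027276.7, chromosome 2 from 137081456 to 137116644, minus strand) had 6 of its 7 regions in all 6 libraries, the highest share of the 10 genes (85.7%). Its promoter region had 6.69, 5.41 and 6.46 in PROLIF and 5.06, 5.91 and 5.54 in DIFF, with a log2 change of -0.09 (SE 0.184; limma adjusted p = 0.799). None of the 6 Jag1 regions passed.

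Among the targets, Hes1 (ENSMUSG00000022528.8, chromosome 16 from 30064384 to 30067796, plus strand), whose oscillating repressor is known to hold progenitors in the cell cycle, was lower in DIFF just downstream of the gene. The region lay 6.2 kb from the start site, at chr16:30070126-30070945, and had 9.48, 6.62 and 7.40 in PROLIF and 4.85, 5.41 and 4.17 in DIFF, without overlap. It fell by 0.61 on the log2 scale (SE 0.178; limma adjusted p = 0.0252). The call was lost under several alternatives. The adjusted p was 0.0673 without PROLIF replicate 1, 0.0678 without PROLIF replicate 4, 0.0616 without DIFF replicate 2, 0.112 without DIFF replicate 4 and 0.123 on the percentile scale.

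The Hes1 promoter peak had a fold enrichment of 7.82, 7.36 and 5.09 in PROLIF and 4.88, 4.82 and 4.70 in DIFF, without overlap but with nearest values of 5.09 and 4.88. Its log2 change was -0.38 (SE 0.184; limma adjusted p = 0.179). Both DIFF-only regions of the target genes belonged to Hes1. One, at chr16:30022851-30023348 within the annotated gene 9030404E10Rik and 41.3 kb upstream, had 3.88, 6.32 and 3.85. The other lay in an exon at chr16:30067038-30067257, within promoter distance of an annotated start site of Hes1, and had 1.98, 2.48 and 2.03. It lost its class at a q of 0.01, with lists of equal length and with a cover of at least 50%. Both lost it among the strongest 20000 peaks.

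Hes5 (ENSMUSG00000048001.7, chromosome 4 from 154960923 to 154962371, plus strand), the Notch target most often used as a reporter of signalling in NSC, overlapped between states at its promoter. The promoter peak, 53 bp upstream of the start site by summit, had 6.95, 7.0 and 5.90 in PROLIF and 6.16, 6.65 and 6.20 in DIFF, and the log2 change was 0.01 (SE 0.170; limma adjusted p = 0.976). Its summit also lay in an exon of the annotated gene Gm20421, and start sites of Gm20421 and Pank4 were within 3 kb of the region. None of the 7 Hes5 regions in all 6 libraries passed. The peak lies over 2 RBPJ motifs. RBPJ motifs were found in 2 of the 9 promoter sequences matched for 8 of the 10 genes in RefSeq (GRCm38.p6), those of Hes5 and Hey2, with 2 matches in each, and in 6.38% of all 32851 promoters of this length. No promoter sequence was matched for Hes1 and Hey1. A Hes1 region 0.8 kb downstream of its start site held an RBPJ match within 100 bp of its summit. The regions at the start sites of Hes1 and Hey1 held none within that distance. The Hes5 and Hey2 promoters are shown, 250 bases before to 50 after the RefSeq start, in the direction of transcription. Matches to the 8 motifs are in capitals.
Hes5 promoter, chr4:154960673-154960972, plus strand: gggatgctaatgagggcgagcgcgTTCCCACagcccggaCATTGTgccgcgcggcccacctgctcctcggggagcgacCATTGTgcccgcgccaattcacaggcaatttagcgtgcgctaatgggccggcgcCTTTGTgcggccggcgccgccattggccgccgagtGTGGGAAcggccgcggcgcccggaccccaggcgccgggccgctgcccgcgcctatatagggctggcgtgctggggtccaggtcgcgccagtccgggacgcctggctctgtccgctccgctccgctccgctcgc
Hey2 promoter, chr10:30842734-30843033, minus strand: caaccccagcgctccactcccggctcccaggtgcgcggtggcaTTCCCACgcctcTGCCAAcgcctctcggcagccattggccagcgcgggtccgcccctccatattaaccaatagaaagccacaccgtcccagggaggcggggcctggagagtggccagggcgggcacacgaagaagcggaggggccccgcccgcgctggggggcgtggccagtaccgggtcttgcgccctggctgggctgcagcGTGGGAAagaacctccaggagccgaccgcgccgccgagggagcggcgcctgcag
In both, one RBPJ match reads TTCCCAC and the other GTGGGAA, that is, they stand on opposite strands, and they are not adjacent.

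Hey1 and Hey2 encode repressors related to HES. Hey2 (ENSMUSG00000019789.9, chromosome 10 from 30832359 to 30842801, minus strand) had the strongest promoter peak of the 10 genes, with 17.7, 13.3 and 14.1 in PROLIF and 14.5, 16.1 and 14.8 in DIFF (log2 change 0.03, SE 0.0832; limma adjusted p = 0.849). Its largest change, 0.34 upward at chr10:30825163-30825436, 17.5 kb downstream of the start, did not pass (SE 0.209; limma adjusted p = 0.316). Hey1 (ENSMUSG00000040289.8, chromosome 3 from 8663359 to 8667256, minus strand) had 11.7, 9.24 and 9.18 at its promoter in PROLIF and 9.02, 10.3 and 9.81 in DIFF (adjusted p = 0.998 by limma). The region that passed at Hey1 lay in an exon 2.5 kb downstream of the start, thus within promoter distance, at chr3:8664626-8664976. It had 3.50, 3.14 and 2.89 in PROLIF and 2.00, 2.19 and 2.20 in DIFF, without overlap, and fell by 0.48 on the log2 scale (SE 0.118; limma adjusted p = 0.00967). These were among the weakest peaks of the 63, and the adjusted p was 0.0832 without DIFF replicate 1, 0.0673 without DIFF replicate 2 and 0.182 on the percentile scale.

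Beyond its 4 regions in all 6 libraries, the Hey1 window held 2 upstream regions, and both had peaks in PROLIF libraries alone. One, at chr3:8701627-8701919, had 3.30 and 3.38 in PROLIF replicates 2 and 4 and no peak elsewhere. The other, at chr3:8712495-8712998, had 4.57 and 3.90 in PROLIF replicates 1 and 4 and no peak elsewhere. Each rested on 2 libraries at percentiles from 8.73 to 33.5, so each was weak. The remaining extra peak of PROLIF replicate 1 was a further peak within a shared region.

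**Figure D5:**
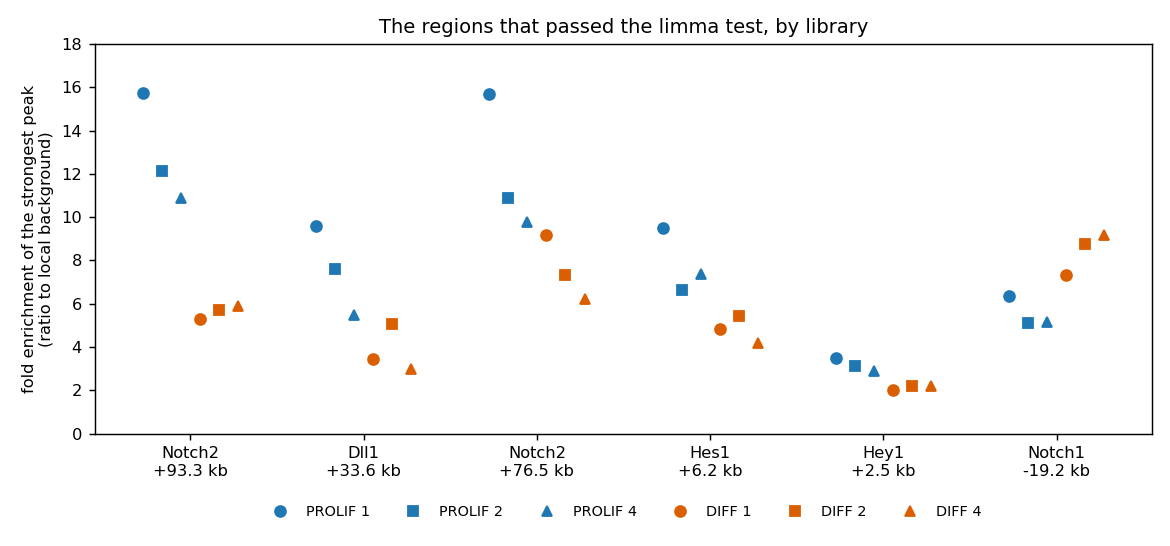
Fold enrichment of the strongest peak (y axis, ratio to local background, from 0) in each library for the 6 regions that passed the limma test, named by gene and distance of the summit from the outermost start site, PROLIF in blue and DIFF in orange. In each of the 5 regions on the left every DIFF value lies under every PROLIF value, most widely at Notch2 (+93.3 kb, 10.9 to 15.8 against 5.32 to 5.89), and at Notch1 every DIFF value lies above.

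Motif matches within 100 bp of the summit were counted over all 129 regions. RBPJ was found in 11 (8.53%), against 4.54% of 119719 regions of the genome, and 7 of the 11 lay in the windows of the target genes. The HES and HEY motif was found in 26 (20.2%) against 14.1%, and AP-1 in 8 (6.20%) against 8.21%. E-boxes were near the genome, CAGCTG in 30 (23.3%) against 19.6% and CAGATG in 18 (14.0%) against 17.3%. NFI was found in 18 (14.0%) against 18.3%, and the SOX motifs ACAAAG in 33 (25.6%) against 20.2% and ACAATG in 11 (8.53%) against 11.6%. Of the 6 regions that passed the limma test, in either direction, and of the 9 state-only regions, 0 held an AP-1 or an RBPJ match within this distance. These are counts of letters in a small number of windows, not matched for distance to start sites, and no test was made of them.

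The other genes of the pathway were examined at their promoters. Of 37 genes, among them Rbpj, Ncstn, a subunit of the protease complex that cleaves the receptor within the membrane, Adam10 and Adam17, the modifiers Lfng, Mfng and Rfng, and the Maml coactivators, 35 had a promoter peak in all 6 libraries. The exceptions were Dll4, with a peak in 2 PROLIF and 3 DIFF libraries, and Heyl, with a peak in 1 PROLIF and 2 DIFF libraries. Of the 35, the promoter percentile of 11 was higher in DIFF without overlap and that of 0 lower, against the 26.0% and 4.79% given above. The upward share lies near the genome's, so it does not set these genes apart. The values of Adam10, Nrarp and Rbpj were added as examples, and naming them was not planned. Adam10, a protease that cuts the ligand-bound receptor, had 91.4, 85.6 and 85.5 in PROLIF and 96.6, 92.4 and 93.1 in DIFF (exact permutation p = 0.1, n = 3). Nrarp, a feedback inhibitor induced by Notch, had 82.7, 73.8 and 70.2 in PROLIF and 86.3, 87.2 and 91.5 in DIFF (exact permutation p = 0.1, n = 3). Rbpj stood at 92.4 to 96.8 in every library and overlapped between states.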

How the data were processed

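ATAC-seq peak lists of 3 PROLIF and 3 DIFF libraries were used, with state and replicate number taken from the labels. According to the study's methods and processing notes, the authors removed adapters (Cutadapt) and low-quality ends (Trimmomatic), aligned read pairs to GRCm38 (mm10; Bowtie2) and ran MACS2 on every library separately. The read extension, a transposase shift and a blacklist are not given in the sources used here, and each can move peak edges. The deposited score is a rounded form of the −log10 q and entered no comparison. The deposited fold enrichment is a ratio of signal to local background within one library, and the deposited −log10 p and −log10 q values rest on that background too. The background pileup was solved from the fold and p of each peak, and read totals were not used here.

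Regions were made by merging peaks of the 6 lists that overlapped by 1 bp or more. Genes and exons are those of GENCODE M21 (same build), and promoters reach 3 kb to each side of any start site of a gene. Fold enrichment of the strongest peak of a region was log2-transformed (no pseudocount, since values are above 0), quantile-normalised and fitted by limma 3.58.1 with a trend over all regions with a peak in all 6 libraries, with Benjamini-Hochberg adjustment. These values stand in for read counts. Values per library were compared by exact permutation of state labels (two-sided). Scripts were tested on simulated data.

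The study describes its ATAC-seq replicates as independent cultures. No label says that a replicate number marks one culture or animal across states, so the states were compared without pairing, and a fit with the replicate number as a block is an alternative.

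The 10 genes, the gene lists and the motifs were chosen with earlier results of these data known. The text names every gene, its promoter region, every state-only region, every region past the threshold and the 3 largest changes in each direction, and marks what was added, except for 1 region, which did not pass and is not reported here. Alternatives were a q of 0.01, the strongest 20000 peaks, lists of equal length (60006 peaks), at least 50% of a region covered, flanks of 10 kb, promoters of 1 kb, each library left out, the replicate block, median centring, the percentile scale and regions in at least 5 libraries. The comparison within ranges of data numbers was added after seeing the data. Software was R 4.3.3 and Python 3.11.15 with scipy 1.17.1, numpy 2.4.6, matplotlib 3.10.9, pandas 2.3.3 and pysam 0.24.0.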

Additional observations from a re-analysis of the deposited data

How the results depend on the processing

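A promoter peak in all 6 libraries was present at 7 of the 10 genes among the strongest 20000 peaks and at all 10 under the other alternatives run (in all libraries left where 1 was left out). The differences in peak number and covered length kept their sign in all alternatives run, from 2.67 to 12 peaks and from 1.54 to 5.94 kb with 1 library left out. The difference in share of the list, -0.354 per 10000, had no stable sign (exact permutation p = 0.1 with lists of equal length). It was 0.00175 at a q of 0.01, 1.17 among the strongest 20000 peaks, 1.28 with lists of equal length, 0.368 with flanks of 10 kb, 0.296 within the lower data numbers (-0.703 within the higher) and -0.791 to 0.0669 with 1 library left out.

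Regions in all 6 libraries numbered 23 among the strongest 20000 peaks, 38 with a cover of at least 50% and 36 with flanks of 10 kb. PROLIF-only regions numbered 1 among the strongest 20000 peaks, 0 with flanks of 10 kb and 2 to 6 with 1 library left out. DIFF-only regions numbered 4 among the strongest 20000 peaks, 4 with lists of equal length and 7 to 10 with 1 library left out. Among the strongest 20000 peaks these were other regions, since 0 of the 9 state-only regions of the full lists kept their class.

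Regions higher in DIFF by limma numbered 0 among the strongest 20000 peaks, 0 with flanks of 10 kb, 3 on the percentile scale, 3 with regions in at least 5 libraries and 0 to 3 with 1 library left out. Those lower numbered 0 among the strongest 20000 peaks, 1 with a cover of at least 50%, 2 on the percentile scale and 3 to 5 with 1 library left out. Over all regions of the genome the calls were 2768 higher and 3558 lower, 253 and 489 among the strongest 20000 peaks, 790 and 1311 with a cover of at least 50%, 1592 and 2542 without DIFF replicate 4 and 1759 and 2938 without DIFF replicate 2. Fewer regions could be fitted among the strongest 20000 peaks (13327) and with the cover (21820). The cause of the other differences was not tested.

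Same-numbered libraries share only a number. Deviations of log2 fold enrichment from the state mean correlated at 0.0732, 0.122 and 0.105 between libraries numbered 1, 2 and 4, and every library correlated best with its own number, a hint from the data and not from the design. With the replicate block 6 Notch regions were lower and 1 was higher by limma. Counting regions where at least 2 of 3 pairs differed and none the other way, a looser definition, gave 11 PROLIF-only regions (8.53%, against 6.29% of all regions) and 12 DIFF-only regions (9.30%, against 11.1%).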

Other observations

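Allowing regions with a peak in 5 of the 6 libraries added 3 calls by limma that the comparison of all 6 could not hold. A region 165.0 kb downstream of the start of Notch2, at chr3:98178263-98178921, had fold enrichments of 4.03 and 3.81 in PROLIF replicates 1 and 2, no peak in PROLIF replicate 4, and 5.39, 6.82 and 7.13 in DIFF (log2 change 0.83, limma adjusted p = 0.0145). An intergenic region of the Dll3 window, at chr7:28263874-28264125, had 4.30 and 2.95 in PROLIF replicates 1 and 2, no peak in PROLIF replicate 4, and 4.99, 7.37 and 5.56 in DIFF (log2 change 0.87, limma adjusted p = 0.0135). An intronic region of Notch1, at chr2:26493555-26493969, went the other way, with 5.87, 4.49 and 4.80 in PROLIF and 3.14 and 2.94 in DIFF replicates 1 and 2 and no peak in DIFF replicate 4 (log2 change -0.67, limma adjusted p = 0.0325). The absent library enters such a fit as a missing value and not as a low one.

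On the percentile scale, 2 further regions were higher in DIFF. One lay at chr2:26444909-26446277, at a promoter of another gene in the Notch1 window (6.25 percentile points, limma adjusted p = 0.0185), and one upstream of Hes5 at chr4:154948199-154949086 (9.37 points, limma adjusted p = 0.0385). On the fold scale their log2 changes were 0.19 (adjusted p = 0.325) and 0.28 (adjusted p = 0.207).

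Among the markers of other cell types, the promoter of P2ry12 (microglia) had a peak in all 6 libraries, at percentiles of 69.8 to 78.1 in PROLIF and 56.8 to 57.6 in DIFF. Csf1r (microglia) overlapped between states, with a mean percentile of 34.2 in PROLIF and 49.6 in DIFF. The promoter of Nes, an intermediate filament of NSC, was lower in DIFF without overlap, at 86.6, 74.5 and 72.9 in PROLIF and 53.9, 66.9 and 62.1 in DIFF (exact permutation p = 0.1, n = 3). The remaining NSC markers, Sox2, Fabp7, Slc1a3, Pax6 and Olig2, overlapped between states. A downward gap was present at 4.79% of genes with a promoter peak in all 6 libraries. The part of these markers in the results on the Notch genes was not tested.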
